A study of Mus musculus with 35 samples.

Results

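Monocyte CC chemokines and their receptors are followed here across mouse skin wounds: the ligands Ccl2, Ccl7, Ccl12, Ccl8, Ccl3 and Ccl4, and the receptors Ccr1 and Ccr2. These 8 genes were chosen by name. The rule used none of their measured values, but earlier results of these data were known when it was set. All 8 were found in both deposited count tables, each of which held 22830 gene symbols, and all 8 passed the filter on low counts in every comparison.

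CC chemokines are small secreted proteins that draw leukocytes out of the blood and through tissue along a gradient. Ccl2, Ccl7, Ccl8 and Ccl12 are monocyte chemoattractant proteins. Ccr2, the receptor for Ccl2, Ccl7 and Ccl12, is carried by inflammatory monocytes and is needed for them to leave the bone marrow. Ccl3 and Ccl4 are the macrophage inflammatory proteins 1 alpha and 1 beta. Ccr1, which binds Ccl3 and Ccl7, is found on monocytes and neutrophils. In skin wounds these signals bring in the monocytes that become wound macrophages, and in normal repair their levels fall as the wound closes.

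The study deleted Col5a1, the gene for a chain of type V collagen, in skin fibroblasts, as a model of classical Ehlers-Danlos syndrome, and sequenced RNA from full thickness wounds. Col5a1CKO mice carried Col1a2CreERT, a tamoxifen-inducible Cre driven by a collagen enhancer active in fibroblasts, and floxed Col5a1 on both alleles. WT mice were littermates with the same floxed alleles and no Cre, and they were wounded and given tamoxifen too. All were adult C57BL/6 mice of both sexes. At day 14 after wounding there were 7 WT wounds, 7 Col5a1CKO wounds and 3 Col5a1CKO wounds into which WT fibroblasts had been injected (Col5a1CKO + WT fibroblasts). Titles of the WT and Col5a1CKO wounds name no vehicle. In the study's legends the 7 WT and 7 Col5a1CKO wounds of day 14 are listed as given vehicle. Its methods name PBS as the control for fibroblast injection. The day 19 samples were 3 wounds of each genotype. A separate experiment at day 14 held 4 WT + vehicle, 4 Col5a1CKO + vehicle and 4 Col5a1CKO + cilengitide wounds, where cilengitide is an inhibitor of αv integrins and the vehicle was saline. The day 19 Col5a1CKO titles name no cells but their treatment label does, whereas for the fibroblast group it is the title alone that names them. The titles were followed.

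Several facts of the libraries bear on what follows. Col5a1 was lower in Col5a1CKO without separating the groups: day 14 WT wounds had 345 to 2404 CPM (counts scaled to library size) and Col5a1CKO wounds 172 to 668 CPM (adjusted p = 0.0757, edgeR). Whole wound RNA also comes from cells that the driver does not touch. By the counts of GC-rich against GC-poor genes, the first table fell into 2 sets of libraries. In day 14 wounds, letters a to d of WT and a to e of Col5a1CKO formed the lower set, and the upper set held every other library. Xist and Y-linked RNA differed between groups: in the upper set at day 14 all 3 WT wounds had Y-linked RNA, whereas both Col5a1CKO wounds and all 3 wounds with fibroblasts had Xist RNA, so that sex and group cannot be told apart there. In the lower set WT had 2 wounds with Xist and 2 with Y-linked RNA, and Col5a1CKO 1 with Xist and 4 with Y-linked RNA. In the cilengitide experiment WT + vehicle and Col5a1CKO + cilengitide each had 2 wounds with Xist and 2 with Y-linked RNA. Col5a1CKO + vehicle had 3 with Y-linked RNA and 1 (replicate 2) with neither. The part of sex in those comparisons was not tested. Libraries of the first table totalled 15043531 to 35700325 counts and those of the second 51211600 to 68266760, and the tables are not compared for level.

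On mouse build NCBI37/mm9, the monocyte chemoattractant genes lie in a row on the plus strand of chromosome 11: Ccl2 at chr11:81849073-81850955, Ccl7 at chr11:81859214-81861027, Ccl12 at chr11:81915347-81916902 and Ccl8 at chr11:81928687-81930301. Ccl3 (chr11:83461346-83462857, minus strand) and Ccl4 (chr11:83476086-83478185, plus strand) are neighbours further along the same chromosome. The receptors are on chromosome 9, Ccr1 at chr9:123876959-123883525 (minus strand) and Ccr2 at chr9:124016689-124028296 (plus strand). Counts are per gene over its exons.

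Promoter sequence was taken from RefSeq windows on build GRCm38.p6, of which 5 of the 8 genes had one: Ccl12, Ccl8, Ccl3, Ccr1 and Ccr2. Ccl2, Ccl4 and Ccl7 had no entry. The 250 bases before the start site are shown for 4 of them, Ccl12, Ccl8, Ccl3 and Ccr1. Ccl12 and Ccl8 moved together in these wounds, as Ccl3 and Ccr1 did. So did Ccl12 and Ccr2, whose window is not shown. Each window also matched mm9 exactly, at 1 place on its chromosome. All are written 5′ to 3′ on the gene's own strand, and the capitals mark TATAAA and GAGGAA on either strand (TTCCTC where GAGGAA lies on the other strand).
Ccl12, chr11:81915097-81915346, mm9, plus strand: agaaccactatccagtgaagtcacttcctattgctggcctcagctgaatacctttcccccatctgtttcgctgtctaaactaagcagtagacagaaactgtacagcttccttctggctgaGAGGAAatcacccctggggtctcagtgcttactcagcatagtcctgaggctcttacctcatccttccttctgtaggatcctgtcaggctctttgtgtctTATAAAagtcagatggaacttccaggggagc
Ccl8, chr11:81928437-81928686, mm9, plus strand: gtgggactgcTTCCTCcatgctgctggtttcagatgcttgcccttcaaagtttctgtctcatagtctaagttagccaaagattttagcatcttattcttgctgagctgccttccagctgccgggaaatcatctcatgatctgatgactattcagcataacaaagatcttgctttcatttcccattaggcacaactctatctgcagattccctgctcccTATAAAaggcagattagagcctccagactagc
Ccl3, chr11:83462881-83463130, mm9, minus strand: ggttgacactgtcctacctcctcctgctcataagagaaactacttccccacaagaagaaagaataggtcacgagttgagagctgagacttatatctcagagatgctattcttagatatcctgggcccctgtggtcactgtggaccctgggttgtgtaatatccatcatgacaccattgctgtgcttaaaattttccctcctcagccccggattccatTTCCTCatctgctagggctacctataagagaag
Ccr1, chr9:123883526-123883775, mm9, minus strand: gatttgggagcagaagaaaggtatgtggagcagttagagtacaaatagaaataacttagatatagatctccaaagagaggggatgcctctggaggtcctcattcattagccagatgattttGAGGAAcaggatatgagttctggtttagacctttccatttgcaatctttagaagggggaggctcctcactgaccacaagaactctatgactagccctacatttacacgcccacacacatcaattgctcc

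Of 6 short motifs searched on both strands, chosen after these windows had been seen, 2 had a match. TATAAA, the TATA box, began 31 bases before the start of Ccl12 and 32 bases before that of Ccl8, and 12.4% of all 32851 windows of this length held it. GAGGAA, a core bound by the myeloid factor PU.1, was in the windows of Ccl12, Ccl8, Ccl3 and Ccr1, against 23.3% of all windows. The window of Ccr2 had no match to any of the 6 motifs. On mm9 that window is chr9:124016672-124016921, which lies largely inside the Ccr2 span given above, so it does not cover the sequence before the start of that span. Because the motifs were chosen with the windows known, the shares do not test for enrichment. TGANTCA (AP-1), the kappaB site, TTCNNNGAA (STAT) and the interferon response element had no match in any of the 5 windows, and 6.75%, 1.21%, 7.02% and 2.98% of all windows held them. These are matches of letters and not shown binding sites.

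The first comparison asked how the loss of Col5a1 changed these genes at day 14. Ccl2, Ccl7 and Ccr2 rose in Col5a1CKO wounds, by 5.19-fold, 4.97-fold and 3.74-fold. The other 5 genes were higher on average without passing the test. A gene was called where its adjusted p was under 0.05 and its change at least 2-fold; 3 of 8 genes were called higher, against 5.57% of the 14367 genes tested, and 0 were called lower, against 2.71%. The median log2 fold change of the 8 genes was 1.59, and that of all genes tested was -0.03. The groups overlapped for all 8, while 2.31% of genes were higher and 1.69% lower with no overlap.

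Ccl2 in WT wounds ran from 4.06 to 29.7 CPM with a median of 21.1 CPM, and in Col5a1CKO wounds from 12.2 to 198 CPM with a median of 69.0 CPM. The groups overlapped only through Col5a1CKO replicate g, the lowest of its group. Its log2 fold change was 2.38 ± 0.58 (SE, n = 7 and 7; adjusted p = 0.02, edgeR). Within the lower set the 4 WT wounds lay between 21.1 and 29.7 CPM and the 5 Col5a1CKO wounds between 43.8 and 198 CPM. Within the upper set the WT wounds had 4.06 to 9.19 CPM and the Col5a1CKO wounds 12.2 and 80.0 CPM. The groups therefore did not overlap inside either set. Fitted within the lower set the log2 fold change of Ccl2 was 2.07 (adjusted p = 0.019), and within the upper set 3.06, which did not pass (adjusted p = 0.0843).

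Ccl7 showed the same order of groups. WT wounds had 3.52 to 57.3 CPM (median 20.5 CPM) and Col5a1CKO wounds 19.0 to 297 CPM (median 117 CPM). The log2 fold change was 2.31 ± 0.67 (SE, n = 7 and 7; adjusted p = 0.04). This call was close to the threshold: it was lost when any of 9 of the 14 libraries was left out (adjusted p up to 0.0867), with log2 fold changes of 2.01 to 2.61 in all 14 fits. Within the lower set it was 1.96 (adjusted p = 0.0179), and within the upper set 3.42 (adjusted p = 0.0599).

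Ccr2 was the receptor that passed the test at day 14. Its WT range was 17.9 to 111 CPM (median 48.7 CPM) and its Col5a1CKO range 96.4 to 346 CPM (median 169 CPM), with overlap between WT replicate a and Col5a1CKO replicate g. The log2 fold change was 1.90 ± 0.41 (SE; adjusted p = 0.0112). Fitted within the lower set it was 1.61 (adjusted p = 0.0169), and within the upper set 2.51 (adjusted p = 0.0369).

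Ccl12 and Ccl8, the other monocyte chemoattractant genes, were higher on average without passing the main test. Ccl12 was low, with 0.82 to 16.6 CPM in WT (median 3.24 CPM) and 5.67 to 22.3 CPM in Col5a1CKO (median 15.7 CPM), with a log2 fold change of 1.58 ± 0.63 (adjusted p = 0.118). WT replicate d alone accounted for the top of its WT range, and without that library the log2 fold change was 2.28 (adjusted p = 0.0238). For Ccl8 the WT range was 12.8 to 125 CPM and the Col5a1CKO range 61.5 to 339 CPM (log2 fold change 1.39 ± 0.57, adjusted p = 0.131). Its 3 lowest values, 12.8 to 15.8 CPM, were the WT wounds of the upper set. Fitted within the lower set, Ccl12 and Ccl8 had log2 fold changes of 1.20 and 0.95 and did not pass (adjusted p = 0.13 and 0.314, edgeR). Within the upper set they were 2.71 and 2.73 (adjusted p = 0.0369 for each). With the set as a covariate they were 1.72 and 1.57 (adjusted p = 0.00785 and 0.0257).

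Ccl3 and Ccl4 varied more among wounds of 1 genotype than between genotypes. In WT wounds Ccl3 ran from 0.13 CPM (2 counts, replicate a) to 381 CPM (replicate c), with a median of 4.08 CPM. In Col5a1CKO wounds it ran from 12.1 CPM (replicate e) to 407 CPM (replicate c), with a median of 119 CPM. The difference was not called (log2 fold change 0.93 ± 1.30, adjusted p = 0.682). Ccl4 had the same high and low WT wounds, with 0.13 CPM in replicate a and 262 CPM in replicate c, and its log2 fold change was 0.72 ± 1.25 (adjusted p = 0.754). WT replicates c and d were the only WT wounds above 100 CPM for Ccl3, at 381 and 227 CPM. They were also the 2 WT wounds of day 14 with Xist RNA. Among Col5a1CKO wounds, those with Xist RNA (replicates e, f and g) had 12.1, 119 and 20.4 CPM of Ccl3. Those with Y-linked RNA had 60.8 to 407 CPM. The part of sex in these levels was not tested.

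Ccr1 went with Ccl3 and Ccl4 from wound to wound. WT replicates c and d had 296 and 215 CPM, and the other 5 WT wounds 9.08 to 53.0 CPM. Col5a1CKO wounds had 81.5 to 609 CPM (median 202 CPM). The log2 fold change of 1.59 ± 0.78 did not pass (adjusted p = 0.201). Fitted within the lower set it was 1.09 (adjusted p = 0.408, edgeR), and within the upper set 3.75 (adjusted p = 0.0421). With the set as a covariate it was 2.01 (adjusted p = 0.0505). A sum of neutrophil markers (7 of 8 listed genes found) was also highest among WT wounds in replicates c and d, at 6514 and 8997 CPM against 1146 to 3206 CPM in the other 5, and it ran from 1739 to 21360 CPM in Col5a1CKO. Its part in the levels of Ccl3, Ccl4 and Ccr1 was not tested. In whole wounds, fewer cells of a type and less RNA per cell cannot be told apart.

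**Figure D1:**
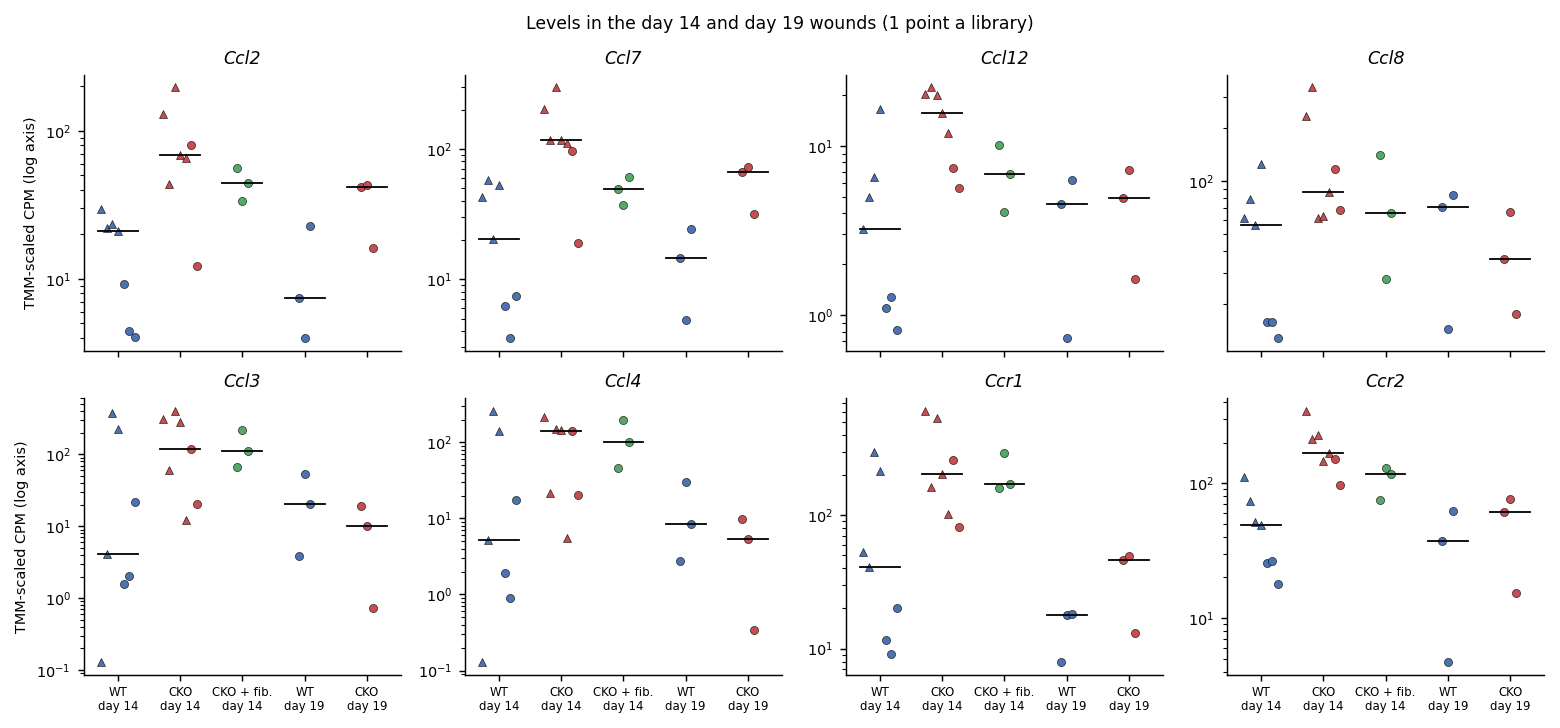
Level of each gene (TMM-scaled CPM, log axis) in the 23 libraries of the day 14 and day 19 wounds. Points are libraries (triangles: lower library set; circles: upper set), black lines are group medians, and CKO + fib. is Col5a1CKO + WT fibroblasts. At day 14, Ccl2, Ccl7 and Ccr2 have most Col5a1CKO wounds above the WT wounds, while Ccl3 in WT wounds runs from 0.13 to 381 CPM.

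Monocyte and macrophage markers also differed at day 14. Of 12 listed markers all were found, 4 rose (Csf1r, Fcgr1, Cd68 and Ly6c2) and 0 fell. WT wounds had summed levels of 1053 to 3813 CPM and Col5a1CKO wounds of 2481 to 5842 CPM. Ly6c2, a marker of inflammatory monocytes, ran from 0.07 to 7.34 CPM among WT and from 5.22 to 52.5 CPM among Col5a1CKO wounds. The list holds Cd14 and Lyz2, which neutrophils also make. Set against this sum in each library, Ccr2 was the only one of the 8 genes whose groups did not overlap (1 of 8 higher, against 0.578% of all genes higher and 2.07% lower): Ccr2 RNA came to 1.28% to 3.32% of the marker sum in WT and to 3.50% to 7.87% in Col5a1CKO. Keratinocyte markers summed to between 30310 and 151800 CPM in WT wounds and between 31.6 and 56420 CPM in Col5a1CKO wounds, and their part in these differences was not tested. Of 7 tested neutrophil markers 3 rose (Csf3r, Mmp8 and Cxcr2) and of 4 endothelial markers 3 rose (Kdr, Cdh5 and Pecam1). Of 6 fibroblast markers 1 rose (Pdgfra), with 0 lower in each list. Of all genes 5.57% were called higher and 2.71% lower. The endothelial sum was 53.9 to 216 CPM in WT wounds, with Col5a1CKO wounds at 189 to 463 CPM, and the part of these cells was not tested either.

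Per unit of gene length, Ccl8 was the largest of the 6 ligand RNAs in most WT wounds at day 14. RPKM (reads scaled to gene length and library size) of the 6 ligands summed to 30.1 to 715 in WT and to 174 to 1102 in Col5a1CKO. Ccl8 made up 54.1% to 65.6% of that sum in WT replicates a, b, e and f, and 10.4% to 28.0% in replicates c, d and g. In WT replicate c, Ccl3 and Ccl4 made up 45.7% and 37.6%. In Col5a1CKO wounds at day 14 the share of Ccl8 ran from 7.94% to 65.3%. The share of Ccl2 overlapped fully between the genotypes, with medians of 10.02% in WT and 9.91% in Col5a1CKO, although its level was higher in Col5a1CKO.

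**Figure D2:**
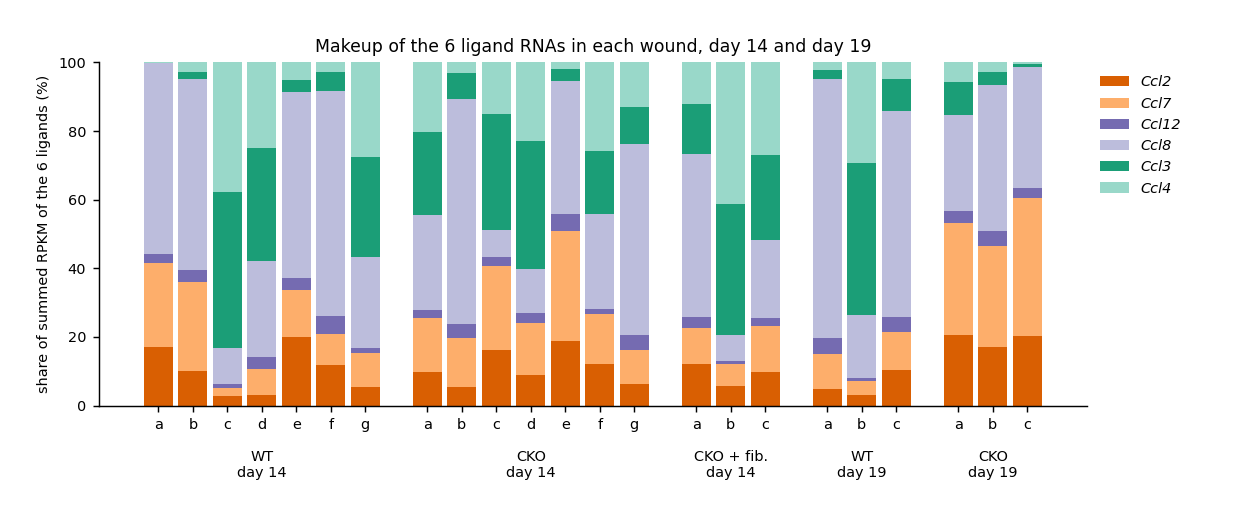
Share of each ligand (% of the summed RPKM of the 6 ligands) in each library of the day 14 and day 19 wounds, 1 bar a library. Ccl3 or Ccl4 has the largest share in day 14 WT replicates c, d and g and day 14 Col5a1CKO replicates c and d. The same holds for WT day 19 replicate b and for replicates b and c with fibroblasts. Ccl2 with Ccl7 outweigh Ccl8 in each day 19 Col5a1CKO wound.

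The day 19 comparison asked whether the difference was there 5 days later. With 3 wounds a group, 0 of 8 genes were called higher, against 0.0198% of the 15135 genes tested, and 0 were called lower, against 0.0%. By this test only 3 genes of all were called, while 3652 had an unadjusted p under 0.05 and DESeq2 called 684 higher and 713 lower. Ccl7 was the 1 member whose groups did not overlap (higher, as were 16.4% of all genes, with 18.5% lower). It had 14.7, 4.87 and 24.1 CPM in WT replicates a, b and c and 66.4, 72.9 and 31.7 CPM in Col5a1CKO, a log2 fold change of 2.01 ± 0.66 (adjusted p = 0.162, edgeR; 0.024, DESeq2).

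Ccl2 at day 19 had 7.37, 3.95 and 22.8 CPM in WT and 42.0, 43.0 and 16.1 CPM in Col5a1CKO. The groups overlapped between WT replicate c and Col5a1CKO replicate c (log2 fold change 1.61 ± 0.76, adjusted p = 0.246). Ccr1 had 7.94, 18.0 and 18.3 CPM in WT and 46.2, 49.6 and 13.01 CPM in Col5a1CKO (1.38 ± 0.59, adjusted p = 0.216). Ccl3 and Ccl4 had the opposite sign, each with a log2 fold change of -1.27 and an adjusted p over 0.5. Ccl3 had 3.89, 54.2 and 20.2 CPM in WT and 19.2, 9.93 and 0.72 CPM in Col5a1CKO, so the groups overlapped widely.

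Ccl8, Ccl12 and Ccr2 differed little at day 19, with log2 fold changes of -0.44 ± 0.77, 0.29 ± 0.89 and 0.58 ± 0.99. The difference was negative for Ccl12 when TMM scaling was left out (-0.01). Macrophage marker sums were uneven here, at 3944, 492 and 5402 CPM in WT and 3224, 3169 and 927 CPM in Col5a1CKO. Relative to that sum, 4 of 8 genes were higher in Col5a1CKO with no overlap (Ccl2, Ccl7, Ccl12 and Ccr2), against 3.01% of all genes higher and 1.39% lower. Ccl7 came to 0.372% to 0.99% of the marker sum in WT and 2.06% to 3.42% in Col5a1CKO. Ccr2 came to 0.95% to 1.16% in WT and 1.64% to 2.40% in Col5a1CKO. Of the day 19 wounds, 1 WT wound had Y-linked RNA, and the other WT wounds and all Col5a1CKO wounds had Xist RNA.

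Whether the genotype difference itself changed between the days was tested as an interaction. All 8 interaction estimates were negative, from -0.26 ± 1.28 for Ccr1 to -2.26 ± 2.28 for Ccl3, and 0 of 8 were called (0.0% of 15954 genes in either direction). None of the 8 had an unadjusted p under 0.05, against 938 of all genes, and DESeq2 also called 0 of the 8. The standard errors were 0.91 to 2.28, so a 2-fold difference between the days was not detectable at this precision. Day 19 libraries were all in the upper set. With only the upper set fitted (3 WT and 2 Col5a1CKO wounds of day 14), 0 of 8 were again called, and the estimates were further from 0, from -1.43 ± 1.08 for Ccl7 to -4.98 ± 2.12 for Ccl4. There Ccl8 was -3.18 ± 0.98 (adjusted p = 0.168) and Ccr1 -2.39 ± 0.93 (adjusted p = 0.217).

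Group medians of the first table pool both library sets. At day 14, 5 of the 7 Col5a1CKO wounds and 4 of the 7 WT wounds were in the lower set. Every other wound was in the upper set, so group and set are mixed in the order that follows. Across the 5 groups, all 8 genes had their highest median in Col5a1CKO at day 14. The second highest was in the wounds with fibroblasts for 6 genes, in Col5a1CKO at day 19 for Ccl7 and in WT at day 19 for Ccl8. For Ccl2 the medians fell in the order 69.0, 44.5, 42.0, 21.1 and 7.37 CPM for Col5a1CKO day 14, Col5a1CKO + WT fibroblasts, Col5a1CKO day 19, WT day 14 and WT day 19, and each neighbour in that order overlapped the next. Ccl7, Ccl8, Ccl12 and Ccr2 likewise had overlapping neighbours throughout. Ccl3, Ccl4 and Ccr1 had 1 break each: the lowest wound with fibroblasts (65.8, 46.3 and 160 CPM) lay above the highest wound of the group next in order, which was WT day 19 for Ccl3 (54.2 CPM) and Ccl4 (29.97 CPM) and Col5a1CKO day 19 for Ccr1 (49.6 CPM).

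The next comparison asked whether injected WT fibroblasts changed these genes in Col5a1CKO wounds. No member passed the test: 0 of 8 were called higher or lower, against 0.0% of 15659 genes in either direction. For all genes 2001 had an unadjusted p under 0.05, and DESeq2 called 9 higher and 10 lower, with 0 of the 8 among them. The groups overlapped for all 8 (0.319% of all genes were higher and 1.76% lower with no overlap). Ccl7 had the lowest estimate, -1.49 ± 0.63 (SE, n = 3 and 7; adjusted p = 0.378). It had 48.8, 37.4 and 60.7 CPM in the wounds with fibroblasts, all inside the Col5a1CKO range of 19.0 to 297 CPM.

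Ccl12 followed (-1.07 ± 0.48, adjusted p = 0.387). Ccl2 had 56.2, 33.6 and 44.5 CPM against 12.2 to 198 CPM (-0.94 ± 0.65, adjusted p = 0.51). Ccr2 had 75.1, 129 and 117 CPM (-0.85 ± 0.37, adjusted p = 0.378). Ccl8, Ccl3, Ccl4 and Ccr1 lay between -0.82 and 0.20. The wounds with fibroblasts were all in the upper library set, while 5 of the 7 Col5a1CKO wounds were in the lower. Against the 2 Col5a1CKO wounds of the upper set the estimates were between -0.19 (Ccl7) and 0.96 (Ccl3), and the negative sign was gone for Ccl2 (0.01), Ccl12 (0.17), Ccl3 and Ccr1 (0.32). Relative to the macrophage marker sum, 0 of 8 were apart in either direction, against 0.23% of all genes higher and 1.07% lower.

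Against WT wounds of day 14, the wounds with fibroblasts had positive estimates for all 8 genes, and 0 of 8 were called higher (3.77% of 15317 genes) or lower (2.06%). Ccl2 was the 1 member with no overlap (higher, as 9.91% of all genes were, with 10.3% lower), with a log2 fold change of 1.59 ± 0.58 (adjusted p = 0.139). Ccr2 gave 1.19 ± 0.51 (adjusted p = 0.193) and Ccr1 1.30 ± 0.94 (adjusted p = 0.467). Relative to the macrophage marker sum Ccl2 was again the 1 gene apart (higher, against 2.76% of all genes, with 18.2% lower). Within the upper set, 3 against 3, all 8 were called higher, against 19.8% of genes in that fit. There Ccl3 had a log2 fold change of 4.11 (adjusted p = 0.0437), Ccr1 4.08 (adjusted p = 0.000545) and Ccr2 2.35 (adjusted p = 0.00061). With the set as a covariate over all libraries 6 were called, against 10% of genes, and Ccl3 and Ccl4 were not. In that set the WT wounds had Y-linked RNA and the wounds with fibroblasts Xist RNA, so sex and group cannot be told apart. Their keratinocyte marker sums also stood apart, at 98890 to 151800 CPM in the WT wounds and 11180 to 27470 CPM in the wounds with fibroblasts. The neutrophil marker sum was 8211 to 9968 CPM in the wounds with fibroblasts and 1146 to 3206 CPM in these WT wounds. Macrophage marker sums were 3378 to 3948 CPM with fibroblasts and 1053 to 1367 CPM in these WT wounds. Fibroblast marker sums were 36530 to 47250 CPM and 8480 to 9548 CPM. The part of these sums was not tested.

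The cilengitide experiment repeated the genotype comparison in vehicle-treated wounds and asked what the integrin inhibitor changed. All 8 genes rose in Col5a1CKO + vehicle over WT + vehicle (8 of 8 called higher, against 17.5% of 15434 genes; 0 called lower, against 13.4%). The groups did not overlap for 7 of 8, all higher, against 24.1% of all genes higher and 25.1% lower. The median log2 fold change of the 8 was 3.25, and that of all genes was 0.02. All 8 calls held with each library left out in turn. These mice were other animals than those of the first table.

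The ligands and receptor of the Ccl2 axis varied less among Col5a1CKO + vehicle wounds than Ccl3, Ccl4 and Ccr1, and WT + vehicle replicate 4 was the lowest WT wound for all 3. Ccl2 had 6.71, 6.86, 12.7 and 5.38 CPM in WT + vehicle replicates 1 to 4 and 44.7, 44.0, 63.5 and 55.5 CPM in Col5a1CKO + vehicle (6.37-fold; log2 2.67 ± 0.29, n = 4 and 4; adjusted p = 0.000762). Ccl7 had 8.19, 8.33, 7.51 and 2.42 CPM in WT and 70.4, 72.1, 98.4 and 67.2 CPM in Col5a1CKO (11.3-fold; adjusted p = 0.00088). Ccr2 had 26.9, 27.0, 26.9 and 11.8 CPM in WT and 173, 223, 215 and 153 CPM in Col5a1CKO (8.02-fold; adjusted p = 0.000678). In each, the lowest Col5a1CKO wound was more than 3 times the highest WT wound.

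Ccl8 and Ccl12 rose by less. Ccl8 had 11.99, 10.3, 13.6 and 3.72 CPM in WT + vehicle and 33.3, 81.0, 64.7 and 24.5 CPM in Col5a1CKO + vehicle (5.02-fold; adjusted p = 0.00827). Ccl12 had 1.54, 1.24, 0.99 and 0.47 CPM in WT and 3.78, 7.51, 2.92 and 5.74 CPM in Col5a1CKO (4.58-fold; adjusted p = 0.00614). Neither pair of groups overlapped.

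Ccl3, Ccl4 and Ccr1 had the highest folds and the widest spread. Ccl3 had 1.41, 11.4, 8.48 and 1.88 CPM in WT + vehicle replicates 1 to 4 and 97.7, 10.8, 1051 and 1274 CPM in Col5a1CKO + vehicle (log2 fold change 6.66 ± 1.63, adjusted p = 0.012). Col5a1CKO replicate 2 lay inside the WT range, while replicates 3 and 4 were far above every WT wound. Ccl4 in WT lay between 0.91 and 6.57 CPM, and it had 53.0, 11.5, 616 and 1114 CPM in Col5a1CKO (7.13 ± 1.61, adjusted p = 0.00875). Ccr1 in WT lay between 4.95 and 21.3 CPM, and it had 269, 120, 1162 and 1514 CPM in Col5a1CKO (5.99 ± 0.99, adjusted p = 0.00262). Wounds 3 and 4 were thus more than 4 times wounds 1 and 2 for these genes, while the 4 wounds lay between 44.0 and 63.5 CPM for Ccl2, 67.2 and 98.4 CPM for Ccl7 and 153 and 223 CPM for Ccr2.

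Replicates 3 and 4 of Col5a1CKO + vehicle also had the highest neutrophil marker sums, 23940 and 44820 CPM, against 4171 CPM in replicate 1, 1598 CPM in replicate 2 and 96.1 to 2202 CPM in WT + vehicle. Macrophage marker sums were also highest in replicates 4 and 3, at 4065, 4748, 7565 and 9323 CPM for replicates 1 to 4, and 530 to 1556 CPM in WT. Within this sum, Cd14 ran from 139 to 3951 CPM and Lyz2 from 1878 to 3009 CPM in Col5a1CKO + vehicle. Neutrophils also make both, so the sum does not stand for macrophages alone. Of the 12 macrophage markers 11 rose. Against that sum, Ccr1 was the 1 of 8 genes with no overlap (higher, against 1.28% of all genes), at 2.52% to 16.2% in Col5a1CKO and 0.676% to 1.77% in WT, while 76.0% of all genes were lower with no overlap on that scale. The part of either marker sum in the rise of the members was not tested. Keratinocyte markers were 58430 to 95020 CPM in WT + vehicle and 58.3 to 11270 CPM in Col5a1CKO + vehicle. Of 7 tested neutrophil markers 6 rose, of 4 endothelial markers 2 rose (Pecam1 and Tek) and of 6 fibroblast markers 2 rose (Dcn and Pdgfra). Of all genes 17.5% were called higher. The endothelial sums did not overlap, at 42.0 to 289 CPM in WT + vehicle and 327 to 795 CPM in Col5a1CKO + vehicle, and their part was not tested.

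**Figure D3:**
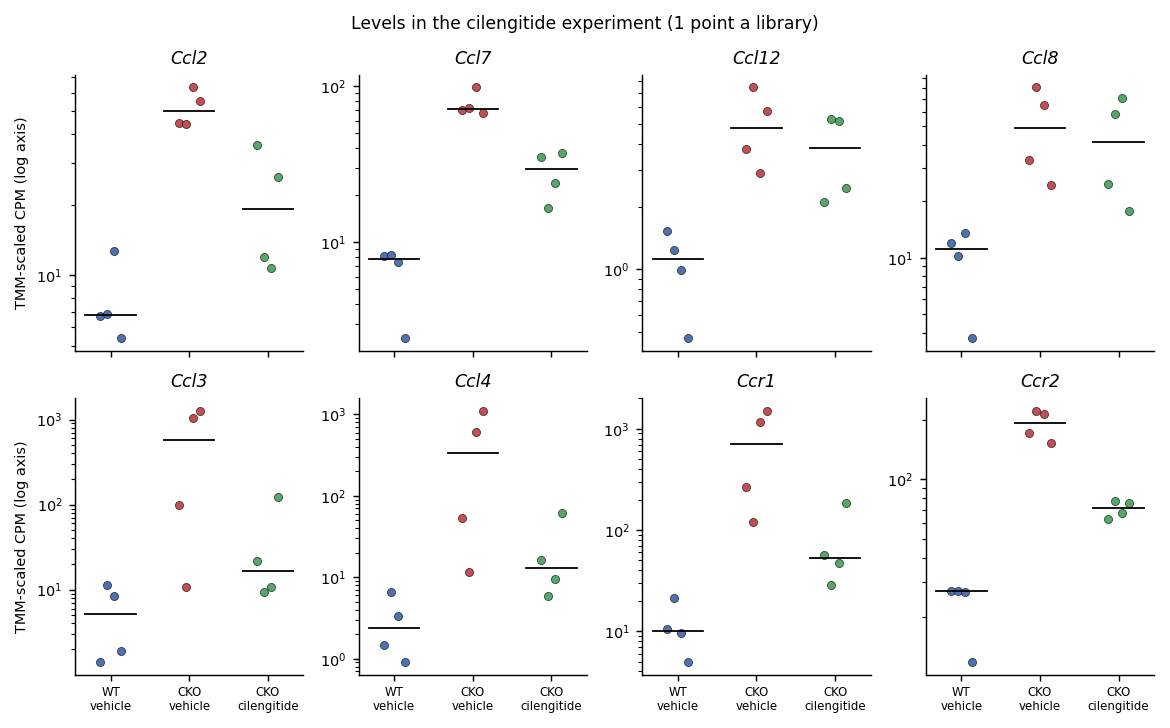
Level of each gene (TMM-scaled CPM, log axis) in the 12 libraries of the cilengitide experiment; points are libraries and black lines group medians. The 4 Col5a1CKO + vehicle wounds are close together for Ccl2, Ccl7 and Ccr2, and run from 10.8 to 1274 CPM for Ccl3.

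With cilengitide, 3 of the 8 genes fell in Col5a1CKO wounds: Ccr2 fell by 1.42, Ccl7 fell by 1.44 and Ccr1 fell by 3.26 on the log2 scale. That is 3 of 8 called lower, against 6.59% of 15563 genes, and 0 called higher, against 6.48%. Ccr2 had 62.7, 77.4, 67.7 and 75.7 CPM in cilengitide replicates 1 to 4, below every vehicle wound (153 to 223 CPM; SE of the log2 change 0.16, adjusted p = 0.003). Ccl7 had 35.2, 16.5, 23.9 and 37.1 CPM, also below every vehicle wound (67.2 to 98.4 CPM; SE 0.27, adjusted p = 0.0115). Groups did not overlap for 3 of 8 genes, all lower, against 13.4% of all genes lower and 18.1% higher. The third was Ccl2, with 35.9, 12.02, 10.8 and 26.3 CPM against 44.0 to 63.5 CPM, which missed the threshold (-1.28 ± 0.40, adjusted p = 0.0508).

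Ccr1 had 56.9, 28.8, 47.7 and 186 CPM with cilengitide, and replicate 4 overlapped the vehicle wounds (120 to 1514 CPM; SE 0.95, adjusted p = 0.0418). Its call was lost when cilengitide replicate 1, 2 or 3 or vehicle replicate 3 or 4 was left out (adjusted p 0.0636 to 0.108). Ccl3 had 21.9, 9.49, 10.8 and 123 CPM (-3.88 ± 1.52, adjusted p = 0.0958) and Ccl4 16.4, 5.82, 9.62 and 61.4 CPM (-4.26 ± 1.47, adjusted p = 0.0678). Both overlapped vehicle replicates 1 and 2. Without vehicle replicate 2 both were called, which made 5 of 8 (adjusted p 0.0428 and 0.0304). DESeq2 called 6 of 8 lower, against 9.51% of all genes, and the genes it did not call were Ccl8 and Ccl12.

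Ccl8 and Ccl12 were nearly level between cilengitide and vehicle. Ccl8 had 24.7, 58.0, 71.1 and 17.8 CPM with cilengitide against 24.5 to 81.0 CPM (-0.24 ± 0.54, adjusted p = 0.776). Ccl12 had 2.11, 5.30, 5.17 and 2.46 CPM against 2.92 to 7.51 CPM (-0.40 ± 0.41, adjusted p = 0.505). Within the cilengitide group, replicates 2 and 3 were the higher for Ccl8 and Ccl12, and replicates 1 and 4 the higher for Ccl2, Ccl7, Ccl3, Ccl4 and Ccr1. The sign for Ccl8 turned when cilengitide replicate 4 (0.06) or vehicle replicate 2 (0.08) was left out.

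Macrophage marker sums were 1994 to 2517 CPM with cilengitide and 4065 to 9323 CPM with vehicle, and 5 of 12 markers fell (Csf1r, Lyz2, Cd68, Fcgr1 and Ly6c2). Against that sum, 0 of 8 members were lower with no overlap (0.0771% of all genes) and 0 were higher, while 67.6% of all genes were higher with no overlap. Ccr2 came to 3.01% to 3.59% of the marker sum with cilengitide and 1.64% to 4.70% with vehicle. Neutrophil marker sums were 3151 to 7263 CPM with cilengitide. Keratinocyte marker sums were 31550 to 65480 CPM, above every vehicle-treated Col5a1CKO wound. Their parts in the fall of the members were not tested.

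**Figure D4:**
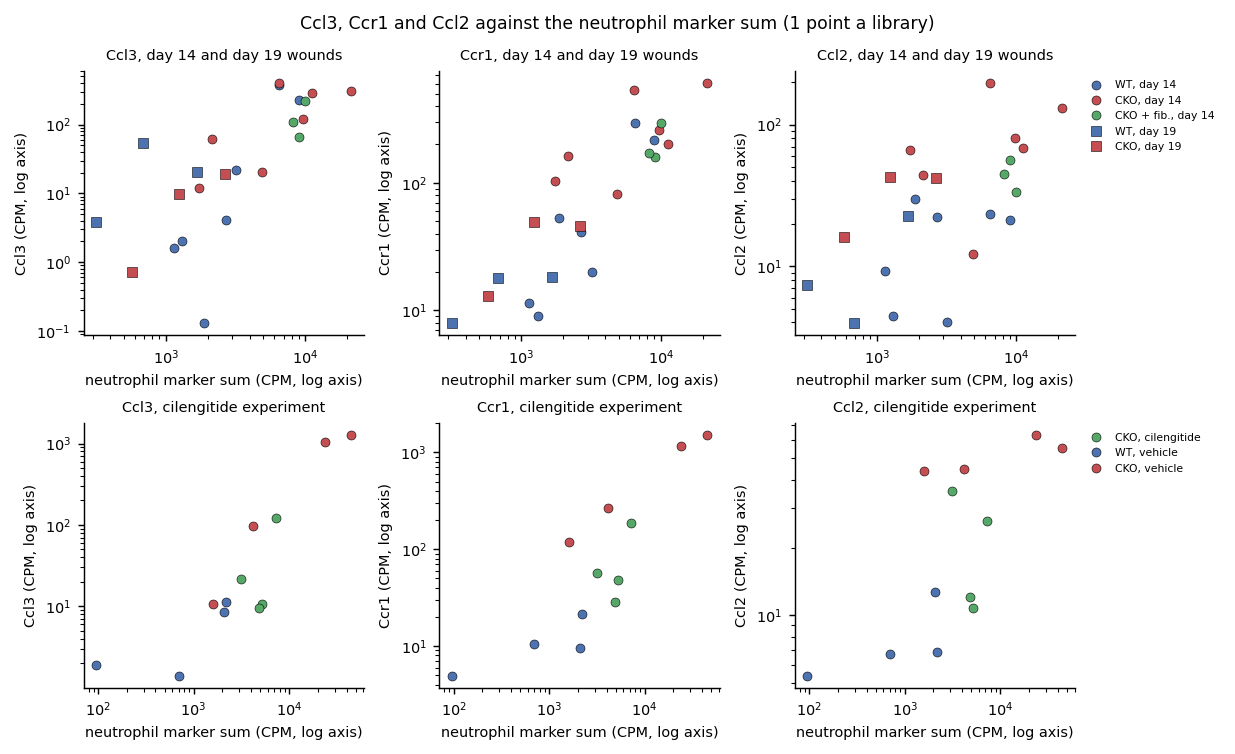
Ccl3, Ccr1 and Ccl2 (CPM, log axes) against the summed CPM of the neutrophil markers found, 1 point a library, in the day 14 and day 19 wounds (top; squares are day 19) and the cilengitide experiment (bottom). The 2 wounds with marker sums of 23940 and 44820 CPM are also highest for Ccl3 and Ccr1, while Ccl2 in all 4 Col5a1CKO + vehicle wounds lies between 44.0 and 63.5 CPM.

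Cilengitide-treated Col5a1CKO wounds were above WT + vehicle for 5 of 8 genes (called higher, against 5.15% of 15514 genes; 0 called lower, against 3.43%). These were Ccr1 (6.87-fold, adjusted p = 0.0302), Ccl8 (4.34-fold, adjusted p = 0.0344), Ccl7 (4.28-fold, adjusted p = 0.0216), Ccl12 (3.55-fold, adjusted p = 0.0304) and Ccr2 (3.06-fold, adjusted p = 0.0193). In all 5 the groups did not overlap, as was so for 14.5% of all genes, with 15.5% lower. Ccl2 (2.70-fold, adjusted p = 0.0583), Ccl4 (7.60-fold, adjusted p = 0.0546) and Ccl3 (7.10-fold, adjusted p = 0.0887) missed the threshold. The adjusted p-values were close to it throughout: 0 members were called without cilengitide replicate 2, 3 or 4, 3 without WT + vehicle replicate 1, 1 without WT + vehicle replicate 3 and 2 without WT + vehicle replicate 4. DESeq2 called all 8 higher, against 9.33% of all genes. Relative to the macrophage marker sum, Ccr2 was the 1 gene with no overlap (higher, against 0.825% of all genes, with 61.6% lower).

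The 3 comparisons of this experiment share groups, so their values are set side by side only. By median CPM, all 8 genes stood in the order Col5a1CKO + vehicle, Col5a1CKO + cilengitide, WT + vehicle. For Ccr2 the medians were 194, 71.7 and 26.9 CPM and for Ccl7 71.2, 29.5 and 7.85 CPM, with no neighbour overlapping the next. For Ccl8 the medians were 48.95, 41.3 and 11.1 CPM, and the treated and untreated Col5a1CKO wounds overlapped.

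**Figure D5:**
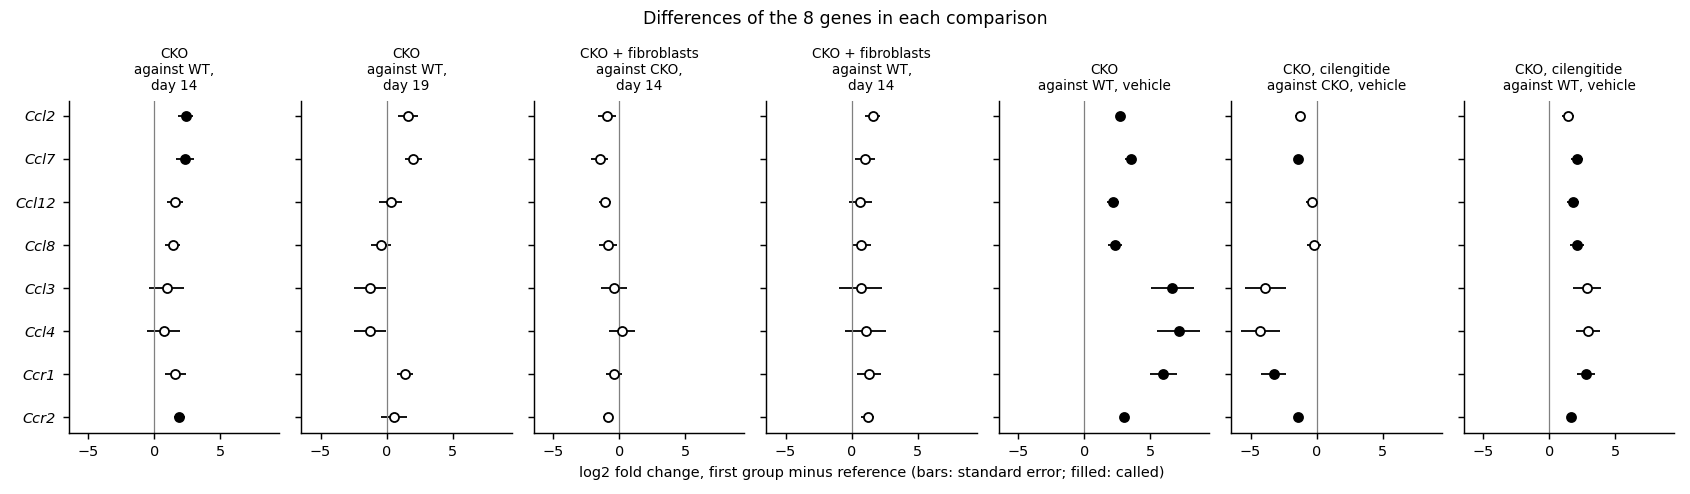
Log2 fold change of each gene (first group minus reference) in the 7 comparisons; bars are standard errors and filled points passed an adjusted p of 0.05 and a 2-fold change. All 8 points are filled for Col5a1CKO against WT with vehicle, and Ccl8 and Ccl12 lie next to 0 for cilengitide against vehicle.

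The other CC chemokines were called in only some comparisons. Of 13 listed, 10 were tested at day 14 and 0 were called in Col5a1CKO against WT, while 5.57% of all genes were called higher and 2.71% lower. With vehicle, 11 were tested and 3 rose (Ccl9, Ccl6 and Ccl5) while 2 fell (Ccl20 and Ccl1). Of all genes 17.5% were called higher and 13.4% lower there, so these counts are not far from the general share. Ccl9 and Ccl6, chemokines of myeloid cells, had 19.7 to 48.6 and 27.3 to 83.4 CPM in WT + vehicle, and 228 to 971 and 168 to 960 CPM in Col5a1CKO + vehicle. Ccl20, an epithelial chemokine, had 3.77 to 7.30 CPM in the WT wounds and at most 0.14 CPM in the Col5a1CKO wounds, 0.0 CPM in the lowest. With cilengitide Ccl9 and Ccl6 fell (to 60.0 to 124 and 55.3 to 117 CPM) and Ccl20 rose (to 0.47 to 1.96 CPM). That made 1 called higher and 2 called lower of 10, against 6.48% and 6.59% of all genes.

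Among the other receptors listed, Darc, a chemokine-binding protein of venules and red cells, was called higher at day 14, with 2.18 to 9.13 CPM in WT wounds and 6.82 to 27.4 CPM in Col5a1CKO wounds (log2 fold change 1.61 ± 0.41, adjusted p = 0.0225, edgeR). With vehicle Darc also rose, from a range of 0.82 to 3.29 CPM to one of 6.16 to 14.9 CPM (adjusted p = 0.0102). With cilengitide it was 3.43 to 13.7 CPM and was not called against vehicle (0.04 ± 0.45, adjusted p = 0.963).

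Cytokines that induce these chemokines were called in some of the same comparisons. Il6 in day 14 wounds lay between 0.0 and 1.07 CPM for WT and between 0.99 and 149 CPM for Col5a1CKO (adjusted p = 0.00422, edgeR). It was the 1 of 5 tested cytokines called (higher, against 5.57% of all genes). With vehicle all 6 tested cytokines rose (Il6, Tnf, Il1b, Csf1, Csf2 and Il1a), against 17.5% of all genes. Il1b, a main inducer of Ccl2, Ccl3 and Ccl4, had 5.51 to 94.1 CPM in WT + vehicle and 626 to 10630 CPM in Col5a1CKO + vehicle (adjusted p = 0.00652). With cilengitide 3 of 6 fell (Il6, Csf2 and Il1b), against 6.59% of all genes, and Il1b was 87.2 to 1045 CPM.

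Patterns across libraries were described with Spearman's rho over the 23 libraries of the first table and the 12 of the second. Those libraries share groups and, in the first table, library sets. Ccl3 and Ccl4 had rho of 0.985 and 0.965, the highest among pairs of members in the first table, and in the second Ccl4 and Ccr1 were higher (0.972). Among 15630 genes, Cxcl2, a neutrophil chemoattractant, was nearest to Ccl3 (0.972 and 0.972) and to Ccl4 (0.971 and 0.993), followed by Il1b for both. Ccr1 was nearest to Srgn (0.96 and 0.993), the proteoglycan serglycin of leukocyte granules, and to Crem. Ccl7 was nearest to Nts, the peptide neurotensin (0.944 and 0.958), and to Angptl4, and Ccl2 to Fas (0.89 and 0.937) and Pilrb2. Ccr2 was nearest to Zeb2 (0.914 and 0.937) and to Fcgr2b, an inhibitory Fc receptor of myeloid and B cells. Ccl12 was nearest to Plac8 and Aga, and Ccl8 to Camk1 (0.808 and 0.853) and Stard3nl.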

How the data were processed

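RNA of 35 wounds was sequenced by the authors from TruSeq stranded libraries. Per the methods and the submitters' processing notes, reads were aligned with HISAT2 to mm9 and counted per gene in SeqMonk; a separate account of the second table, and versions, are not given in the sources used here. The deposited values are raw read counts per gene in 2 tables, with no normalization, 23 libraries in the first and 12 in the second. Where a symbol had several RefSeq rows in the first table, the row with the largest total was kept. Rows with no gene name (30 and 1) held at most 0.069% and 0.0002% of the counts of a library and were left out.

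From the counts, each comparison was fitted on its 2 groups with edgeR 4.0.16 in R 4.3.3 (TMM scaling, low counts removed by filterByExpr at a minimum of 10, quasi-likelihood test with robust estimation), and p-values were adjusted over all genes tested (Benjamini-Hochberg). A gene was called at an adjusted p under 0.05 and at least 2-fold. SE is that of the log2 fold change. Levels are TMM-scaled CPM over each table, and RPKM used the deposited lengths. Marker sums are the summed CPM of fixed lists. Library sets were parted at the widest gap between libraries (1.54 on the log2 scale, next 0.395) in the counts of GC-rich against GC-poor genes (10% in each tail of genes with a mean of 5 CPM or more; 97.8% had a GC value). DESeq2 1.42.0 was an alternative. The fits were also run on simulated counts that held no library sets and no sex differences, so that run cannot speak to either. The 8 genes and the lists were chosen with earlier results of these data known. The genes named are the 8, the nearest 2 to each by the lower of the rhos in both tables, and of each other list up to 4 called genes by adjusted p in a comparison; markers and motifs were named beside them. Part of the list of other receptors, and its counts, are not reported here.

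Groups were taken from sample titles. The methods call the wounds separate biological replicates. Shared replicate letters did not pair the samples and were not used as a block in the main tests. Alternatives were other size factors, no scaling, no filter, all groups in 1 fit, a 3-fold threshold, summed RefSeq rows, the library set, the letter as a block, and each library left out. Library totals ran from 15043531 to 35700325 (first table) and from 51211600 to 68266760 (second). The lowest value of a member was 2 counts.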

Additional observations from a re-analysis of the deposited data

Results flagged for a closer look

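Of 40 sets of a member's values in a group of 4 to 10 wounds, 5 had 1 wound far from the others by Dixon's criterion, which chance alone gives in about 1 in 20 groups. Ccl12 was 16.57 CPM in WT replicate d of day 14, and the next value was 6.53 CPM. Ccl7 was 2.415 CPM and Ccr2 11.8 CPM in WT + vehicle replicate 4, where the nearest wounds had 7.51 and 26.9 CPM. Ccl7 was 98.44 CPM in Col5a1CKO + vehicle replicate 3, against 72.1 CPM in the nearest. Ccl3 was 122.5 CPM in Col5a1CKO + cilengitide replicate 4, against 21.9 CPM in the nearest. WT + vehicle replicate 4 was the lowest of its group for 7 of the 8 genes, Ccl3 excepted, and also had the lowest macrophage (530 CPM) and neutrophil (96.1 CPM) marker sums.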

How the results depend on the processing

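The direction and side of the threshold held for most values under the alternatives (921 single-gene values and 237 counts kept theirs; 45 genes' values lost and 41 gained the threshold, 17 turned sign and 19 counts moved), and the cause of the changes below was not tested. At day 14, 5 members were called higher in Col5a1CKO against WT with the library set as a covariate (main count 3). They were Ccl2, Ccl7, Ccl8, Ccl12 and Ccr2, and the share of all genes was 9.04%. At day 19, DESeq2 called 1 higher (4.52% of all genes). For wounds with fibroblasts against Col5a1CKO, 3 were called lower when only letters a to c were compared without pairing (9.31% of all genes). That alternative was chosen after seeing the data. Its Col5a1CKO wounds were all in the lower library set and its wounds with fibroblasts all in the upper. Set and group cannot be told apart there. For wounds with fibroblasts against WT, 6 were called higher with the set as a covariate (10% of all genes) and 8 within the upper set (19.8%). With cilengitide against vehicle, 1 was called lower at 3-fold (3.32% of all genes), 6 with DESeq2 (9.51%) and 5 with all groups in 1 fit (7.16%). For cilengitide against WT, 8 were called higher with DESeq2 (9.33% of all genes) and 3 with all groups in 1 fit (1.95%). With each library left out in turn, the counts ran from 2 to 4 at day 14, from 2 to 5 for cilengitide against vehicle and from 0 to 5 for cilengitide against WT.

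The replicate block (letter as a block) gave 5 members called higher at day 14, against 5.27% of all genes. For wounds with fibroblasts against Col5a1CKO it gave 2 called lower, against 7.42% of all genes, with group and library set again inseparable. Deviations of same-letter wounds correlated between -0.447 and 0.573 at day 14 and between -0.409 and -0.319 at day 19, so the letters were taken as names only. No paired analysis was possible for the cilengitide experiment because its labels give no shared numbers.

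Signs turned as follows (log2). At day 19, Ccl12 was -0.01 with library size only, -0.21 without WT replicate b and -0.20 without Col5a1CKO replicate b (range with each library left out -0.214 to 0.858). For wounds with fibroblasts against Col5a1CKO, within the upper set Ccl2 was 0.008, Ccl12 0.166, Ccl3 0.96 and Ccr1 0.322; with the set as a covariate Ccl12 was 0.102, Ccl3 0.921 and Ccr1 0.277; and Ccl4 was -0.453 without fibroblast replicate b (range to 0.582), -0.068 with the replicate block and -0.17 with letters a to c unpaired. Against WT, Ccl8 was -0.042 without fibroblast replicate a (range to 1.107) and -0.039 with the replicate block. With cilengitide against vehicle, Ccl8 was 0.056 without cilengitide replicate 4 and 0.077 without vehicle replicate 2 (range from -0.558). Leaving out TMM scaling gave a median over all genes of -0.39 at day 19 and of -0.53 for the difference between days (main -0.01 for both). At the lowest depth, 2 counts of Ccl3 in WT replicate a of day 14, counting error is wide.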
